A study of Mus musculus with 15 samples.

Results

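The genes Nlrp3, Nlrc4, Aim2, Nod2, Pycard, Casp1, Casp4, Gsdmd, Il1b and Il18 were examined as the inflammasome and NOD receptor genes of murine mononuclear phagocytes (MPs). They were chosen by symbol, each symbol matched 1 Ensembl gene, and they make up 10 of the 38924 genes in the deposited tables. All 10 were among the 14456 genes above 1 CPM (counts per 1000000) in at least 3 libraries, which is the filter behind every test. RNA was measured in 15 libraries, 3 for each of 5 sorted subtypes from untreated female C57BL/6 mice, labelled as 6 to 8 weeks old. The spleen gave CD8+ dendritic cells (DCs), CD4+ DCs and Ly6C+ monocytes, and the lung-draining lymph node (LN) gave CD103+ DCs and CD11b+ DCs with high surface MHC class II. CD8+ and CD103+ DCs belong to the DC1 lineage, and CD4+ and CD11b+ DCs to the DC2 lineage. Every library was a pool of cells from 5 mice. The LNs and spleens came from different cohorts, so organ and cohort cannot be told apart in any comparison of LN with spleen. Tissue was dissociated with collagenase D, and cells were captured on beads (against CD11c for DCs and CD11b for monocytes) ahead of the sort.

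Inflammasomes are protein assemblies that form when a sensor meets a microbial product or a sign of damage inside the cell. Nlrp3 responds to many membrane and metabolic disturbances, Nlrc4 to bacterial flagellin and secretion-system proteins carried to it by NAIP proteins, and Aim2 to double-stranded DNA in the cytosol. Pycard (ASC) is the adaptor that links a sensor to Casp1, the protease that matures IL-1β and IL-18, and Casp4 (caspase-11) binds bacterial lipopolysaccharide directly. Both caspases cut Gsdmd, which then forms membrane pores through which IL-1β leaves and the cell may die. Nod2 is a cytosolic receptor for muramyl dipeptide, a fragment of bacterial cell walls, and signals to NF-κB through the kinase Ripk2 rather than through an inflammasome. Monocytes and macrophages are known as the main producers of IL-1β, and Il1b and Nlrp3 transcription is known to rise on microbial priming.

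The promoters of 4 members are shown. Nlrp3 and Nlrc4 were lower in LN than in splenic DCs of the same lineage, and the neighbours Casp1 and Casp4 had LN-to-spleen differences that depended on the lineage. They are the 250 bases before the start listed by RefSeq on GRCm38.p6, read 5′ to 3′ on the strand of the gene, with matches to the motifs searched in capitals. Nlrp3 is at chr11:59541319-59541568 on the plus strand, Nlrc4 at chr17:74459109-74459358 on the minus strand, Casp1 at chr9:5298267-5298516 and Casp4 at chr9:5308599-5308848, both on the plus strand. Where RefSeq lists 2 starts, as for Nlrp3 and Casp4, the one nearest the gene start in the deposited annotation was taken.
Nlrp3: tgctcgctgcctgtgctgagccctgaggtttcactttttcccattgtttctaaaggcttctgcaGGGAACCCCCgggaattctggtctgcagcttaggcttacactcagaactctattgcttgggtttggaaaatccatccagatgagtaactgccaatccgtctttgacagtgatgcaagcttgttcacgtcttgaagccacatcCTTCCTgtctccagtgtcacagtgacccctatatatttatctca
Nlrc4: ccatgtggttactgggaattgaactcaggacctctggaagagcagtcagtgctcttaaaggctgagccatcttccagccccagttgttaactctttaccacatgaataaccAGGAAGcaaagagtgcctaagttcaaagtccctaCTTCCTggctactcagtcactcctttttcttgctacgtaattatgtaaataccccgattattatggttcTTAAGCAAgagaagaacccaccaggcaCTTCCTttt
Casp1: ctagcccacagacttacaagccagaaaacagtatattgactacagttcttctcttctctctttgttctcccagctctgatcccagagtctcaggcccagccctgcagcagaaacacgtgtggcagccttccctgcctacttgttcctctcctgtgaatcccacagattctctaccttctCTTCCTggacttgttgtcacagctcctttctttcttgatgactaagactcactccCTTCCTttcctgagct
Casp4: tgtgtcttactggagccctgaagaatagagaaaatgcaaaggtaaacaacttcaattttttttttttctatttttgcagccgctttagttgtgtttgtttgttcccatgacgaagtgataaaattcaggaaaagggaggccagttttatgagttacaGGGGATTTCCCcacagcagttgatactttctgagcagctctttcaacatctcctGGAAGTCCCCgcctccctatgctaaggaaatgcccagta

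The letters searched on both strands were AGGAAG (the core bound by ETS factors such as PU.1), the interferon-stimulated response element (GAAA, any 2 bases, GAAA), TTGCNNAA (C/EBP), TGANTCA (AP-1) and the κB consensus. The Nlrc4 promoter held AGGAAG at 3 places, 139 to 134, 105 to 100 and 9 to 4 bases before the start, and TTGCNNAA at 36 to 29. Nlrp3 held AGGAAG at 44 to 39 and the κB consensus at 186 to 177 bases before the start. Casp4 held the κB consensus at 93 to 84 and 92 to 83, which overlap, and at 39 to 30 bases before the start. Casp1 held AGGAAG at 71 to 66 and 16 to 11. Of 32851 promoter windows of the same length, 29.5% held AGGAAG, 9.56% TTGCNNAA, 7.25% the κB consensus, 6.75% TGANTCA and 2.98% the interferon-stimulated element. Of the 9 members with a promoter entry (Gsdmd had none), 5 held AGGAAG, 2 TTGCNNAA, 2 the κB consensus and 0 the other motifs. The RefSeq starts of Aim2, one of those with AGGAAG, and Il18 lie 69725 and 20573 bases from the deposited gene starts. For Nlrp3 and Il18 the sequence just after the RefSeq start was not found in an annotated transcript of the gene. A match is only a description of the letters.

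The libraries held 4531243 to 10233914 counts each and detected 15222 to 17693 genes. The sorted subtypes were checked against their defining markers, as summed CPM over each list. The 5 shared DC genes (Flt3, Zbtb46, Itgax, H2-Ab1, Cd74) summed to 75421 to 98411 CPM in CD8+ and 57203 to 124051 in CD4+ DCs. They were lower in the LN, at 30199 to 63501 in CD11b+ and 14660 to 23975 in CD103+ DCs, and at 7717 to 10047 in monocytes. The 5 DC1 markers (Xcr1, Clec9a, Cadm1, Tlr3, Irf8) summed to 3438 to 5376 CPM in CD8+ and 699 to 1017 in CD103+ DCs, against at most 361 in CD4+ and CD11b+ DCs and 456 to 570.1 in monocytes. The 5 DC2 markers, Sirpa, Irf4, Cd4, Clec4a4 and Itgam, summed to 1571 to 2660.4 CPM in CD4+ DCs and 792 to 879.8 in CD11b+ DCs, against 53.0 to 70.9 in CD103+ DCs and 2282 to 2599 in monocytes. The 4 migratory DC markers, Ccr7, Fscn1, Ccl22 and Cd274, summed to 5869 to 7288 in CD11b+ and 10922 to 13155 in CD103+ DCs. In the spleen these summed to 182 to 248 CPM in CD8+ DCs, 385 to 642 in CD4+ DCs and 49.1 to 59.0 in monocytes. Monocyte markers (Ly6c2, Ccr2, Csf1r, Cd14, Fcgr1) summed to 5373 to 5922 CPM in monocytes. Markers of other cells were also present. LN CD103+ replicate 1 held 257 CPM of 7 B cell genes, against 16.5 and 28.8 in the other libraries of that subtype. T cell genes reached 106 to 133 CPM in CD103+ and 67.7 to 102.99 in CD11b+ DCs, against 0.944 to 7.05 in CD8+ and 1.36 to 7.99 in CD4+ DCs.

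Levels are given as CPM scaled by TMM normalization, in the order of replicates 1 to 3. Differences are log2 fold changes ± SE from edgeR's quasi-likelihood test in 1 model of all 15 libraries, and adjusted p is Benjamini-Hochberg over the 14456 genes, called under 0.05. Intervals are 95% confidence intervals of single differences on the log2 scale, not adjusted for the number of genes, so one may exclude 0 where the adjusted p missed the threshold. Over the 10 pairs of subtypes, 12.9% to 53.2% of all genes passed this threshold, with 39.9% between splenic CD8+ and LN CD11b+ DCs and 47.0% between splenic CD4+ and LN CD103+ DCs. An exact permutation test of 3 libraries against 3 cannot go below p = 0.1. Fewer cells of a type and less RNA per cell cannot be told apart in such sorted pools.

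Nlrp3 (chr11:59541568-59566956, plus strand, mm10) was the sensor with the widest range. Monocytes held 83.0, 62.2 and 71.8 CPM and splenic CD4+ DCs 35.7, 28.6 and 37.5. Splenic CD8+ DCs held 21.99, 19.4 and 18.2 CPM, and LN CD11b+ DCs 13.4, 3.81 and 7.73. In LN CD103+ DCs Nlrp3 was at 1.12, 0.351 and 1.16 CPM, which rested on 8, 3 and 7 counts. No library of 1 subtype overlapped one of another, so that the order was monocytes, CD4+, CD8+, CD11b+ and CD103+ DCs. Of the 10 pairs of subtypes, 9 passed the threshold, and the pair that did not was CD4+ against CD8+ DCs, with a 95% interval of 0.11 to 1.44 on the log2 scale for CD4+ minus CD8+.

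Nlrc4 (chr17:74426295-74459108, minus strand) followed the same order at its ends. It was at 21.4, 26.0 and 26.7 CPM in monocytes and 11.7, 17.9 and 34.1 in splenic CD4+ DCs, whose range spanned that of monocytes. LN CD11b+ DCs held 7.42, 4.40 and 7.07 CPM and splenic CD8+ DCs 6.10, 4.86 and 1.95. LN CD103+ DCs held 2.09, 0.819 and 0.663 CPM from 15, 7 and 4 counts. Monocytes and CD4+ DCs overlapped and were not told apart (interval of the log2 difference -0.63 to 1.08), and neither were CD11b+ and CD8+ DCs (-0.39 to 1.4995). The other 8 pairs passed.

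Aim2 (chr1:173350879-173466040, plus strand) was the flattest of the inflammasome sensors. Its mean was 72.1 ± 11.2 CPM (SD, n = 3) in CD4+ DCs, 52.2 ± 4.61 in monocytes, 51.3 ± 9.88 in CD8+ DCs, 44.1 ± 4.33 in CD103+ DCs and 34.3 ± 6.57 in CD11b+ DCs. No pair of neighbours in that order passed the threshold, and 4 of the 10 pairs did. They were CD11b+ DCs below each of the 3 splenic subtypes, and CD103+ DCs below CD4+ DCs.

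Nod2 (chr8:88647315-88688474, plus strand) was low everywhere and highest in monocytes. Monocytes held 14.9, 12.5 and 16.6 CPM, above every DC library, while the 12 DC libraries ranged from 6.60 to 12.1. Monocyte counts sum 2 sequencing runs, and the separation did not hold in either run alone. Without TMM scaling, the monocyte libraries held 21.4, 10.8 and 22.3 CPM in the first run and 10.2, 14.3 and 11.4 in the second. No pair of the 4 DC subtypes passed the threshold, with intervals of -0.68 to 0.51 for CD8+ minus CD4+ and -0.22 to 0.98 for CD103+ minus CD11b+. Monocytes passed against CD8+ DCs (log2 fold change 0.75 ± 0.28, adjusted p = 0.0390) and CD11b+ DCs (log2 fold change 0.99 ± 0.29, adjusted p = 0.00762). Over the 5 subtypes together Nod2 had the weakest call of the members (adjusted p = 0.0344), and 73.5% of all genes passed that test.

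Pycard (chr7:127992103-127993867, minus strand), the adaptor, was at 84.0, 105 and 103.4 CPM in monocytes, above every DC library. CD8+ DCs held 51.2, 56.7 and 63.9, CD11b+ DCs 63.5, 55.3 and 37.8 and CD4+ DCs 47.3, 40.6 and 47.4. CD103+ DCs were lowest at 37.7, 36.7 and 32.0 CPM. Among DC subtypes CD103+ against CD8+ was the only pair past the threshold, and the neighbours CD8+, CD11b+, CD4+ and CD103+ were not told apart (-0.08 to 0.77 for CD4+ minus CD103+).

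Casp1 (chr9:5298517-5307265) and Casp4 (chr9:5308828-5336783) lie on the plus strand of chromosome 9 with 1562 bases between them, and their levels were ordered differently. Casp1 was at 110.5, 160.4 and 123 CPM in CD4+ DCs and 102, 126 and 147 in monocytes. The LN subtypes lay between, with 77.7, 92.2 and 78.0 in CD11b+ and 57.5, 101 and 73.7 in CD103+ DCs. CD8+ DCs were below every other library at 38.4, 35.9 and 31.3 CPM. CD4+ DCs and monocytes were not told apart (-0.39 to 0.52), nor were CD11b+ and CD103+ DCs (-0.37 to 0.55), and the other 8 pairs passed.

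Casp4 was instead highest in both LN subtypes and monocytes. CD103+ DCs held 41.4, 51.5 and 57.0 CPM, CD11b+ DCs 33.6, 44.6 and 61.7 and monocytes 40.9, 39.5 and 46.3, which overlapped. CD4+ DCs held 15.7, 20.1 and 13.2 and CD8+ DCs 3.47, 5.26 and 6.76 CPM. All libraries of both splenic DC subtypes were below those of the other 3 subtypes. The 3 high subtypes were not told apart (-0.43 to 0.64 for CD103+ minus CD11b+, -0.40 to 0.67 for CD11b+ minus monocytes), while the 7 other pairs passed.

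Gsdmd (chr15:75862339-75867404, plus strand), the pore protein, was high in the same 3 subtypes as Casp4. Monocytes held 138, 176 and 159 CPM and CD103+ DCs 124, 129 and 139. CD11b+ DCs held 109.9, 92.4 and 94.4, CD8+ DCs 38.6, 37.0 and 55.0 and CD4+ DCs 40.6, 20.5 and 43.9 CPM. Every LN library exceeded every splenic DC library. Monocytes and CD103+ DCs (-0.22 to 0.76), CD103+ and CD11b+ DCs (-0.09 to 0.89) and CD8+ and CD4+ DCs (-0.19 to 0.82) were not told apart, and the other 7 pairs passed.

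Il1b (chr2:129364570-129371139, minus strand), the precursor of IL-1β, separated the lineages. It was at 357, 333 and 289.8 CPM in monocytes and 181, 290.1 and 403 in CD4+ DCs. CD11b+ DCs held 195, 105 and 234 CPM. The DC1 subtypes were lowest, with 52.8, 53.3 and 79.6 in CD8+ and 39.8, 38.4 and 55.8 in CD103+ DCs. Monocytes and CD4+ DCs were not told apart (-0.45 to 0.78), nor CD8+ and CD103+ DCs (-0.15 to 1.10), nor CD4+ and CD11b+ DCs (0.09 to 1.32), and the other 7 pairs passed. Il1bos, on the opposite strand, shares 1.31% of the exon bases of Il1b and reached at most 2.00 CPM, and reads of both strands were counted together.

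Il18 (chr9:50575273-50581837, plus strand), the precursor of IL-18, was highest in monocytes and lowest in CD103+ DCs. Means were 22.2 ± 2.14 CPM (SD, n = 3) in monocytes, 17.5 ± 7.79 in CD4+ DCs, 13.97 ± 3.23 in CD8+ DCs, 13.04 ± 5.45 in CD11b+ DCs and 6.22 ± 1.204 in CD103+ DCs. No neighbours in this order passed the threshold. The 3 pairs past the threshold all placed CD103+ DCs below a splenic subtype. The deposited gene model of Il18 has 714 exon bases and begins 20573 bases from the RefSeq start, so reads of exons outside it were not counted for Il18.

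**Figure D1:**
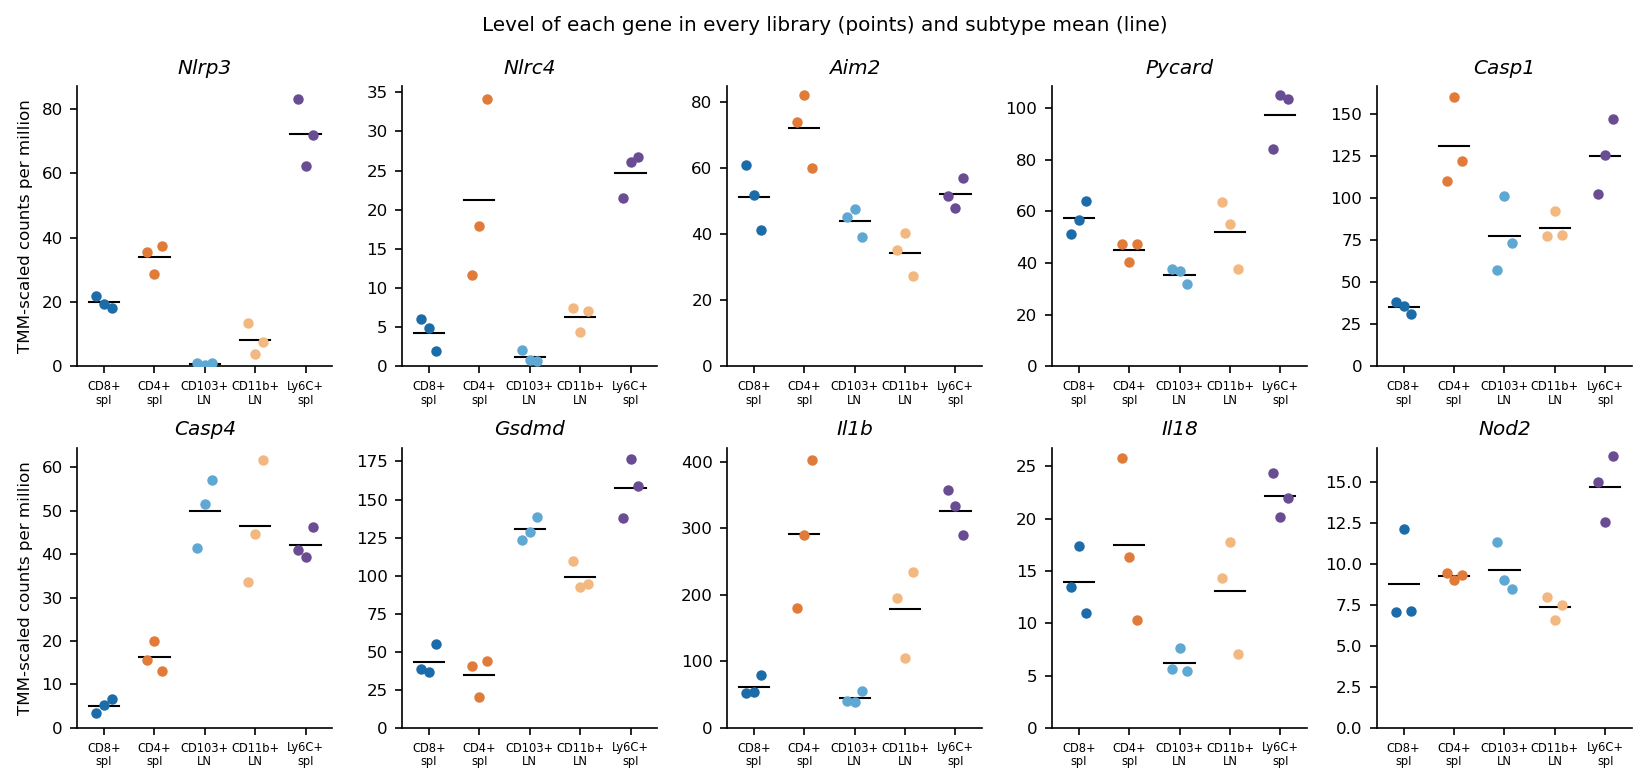
Level of each gene in TMM-scaled CPM, 1 panel a gene, with the 5 subtypes on the x axis (spl, spleen), each point a library and each line the mean of 3. Nlrp3 averaged 72.3 CPM in monocytes and 0.876 in LN CD103+ DCs, whereas Casp4 and Gsdmd were higher in both LN subtypes than in both splenic DC subtypes.

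On the length-scaled scale (TPM, transcripts per 1000000), which allows genes to be set side by side, the order of genes differed between subtypes. In monocytes Il1b was highest at 443 ± 55.0 TPM (SD, n = 3), followed by Gsdmd at 229 ± 21.1, Casp1 at 215 ± 35.2 and Pycard at 179 ± 16.5. Nlrp3 was at 46.2 ± 8.11, Nlrc4 at 16.6 ± 1.53 and Nod2 at 7.58 ± 1.16 TPM there. In LN CD103+ DCs Gsdmd led at 166 ± 12.8 TPM, followed by Casp1 at 117 ± 31.4. Casp4 was at 30.5 ± 5.13 and Aim2 at 28.4 ± 2.17 TPM in these cells, while Nlrc4 was at 0.701 ± 0.462 and Nlrp3 at 0.491 ± 0.261. CD103+ DCs held the adaptor Pycard at 57.0 ± 4.05 TPM, with Nlrp3 and Nlrc4 at no more than 1.23 TPM in any library.

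**Figure D2:**
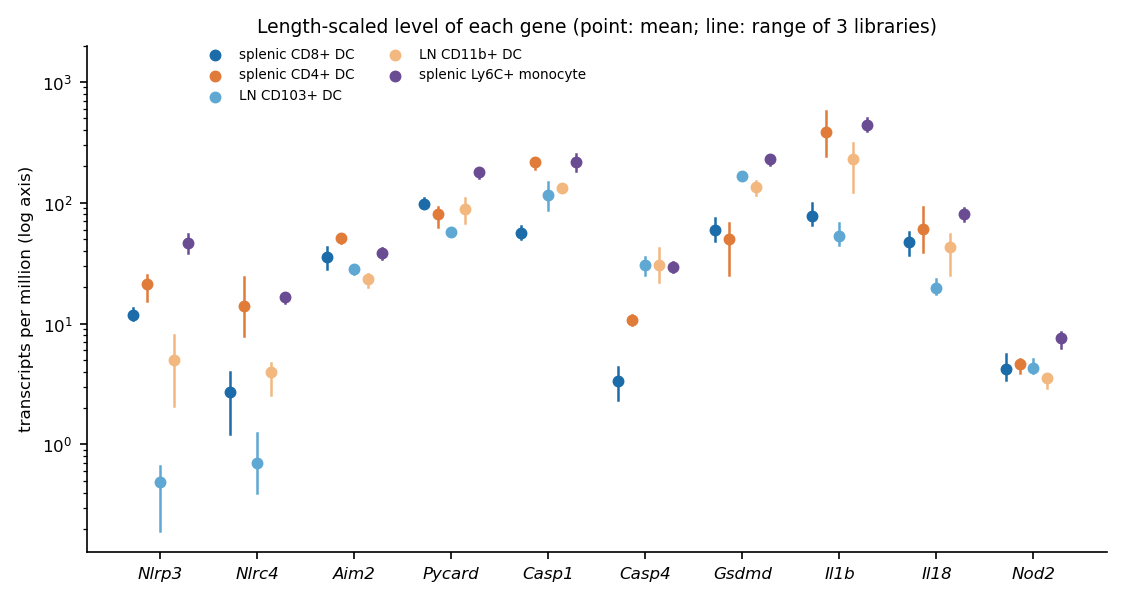
Length-scaled level of each gene in TPM on a log axis, with 1 color for each subtype, points for means and lines for the range of 3 libraries. Nlrp3 and Nlrc4 in LN CD103+ DCs (0.491 and 0.701 TPM) were the lowest means, and Il1b in monocytes (443 TPM) the highest.

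Monocytes were compared with the mean of the 4 DC subtypes, taken on the log2 scale, where subtypes with very low levels weigh heavily. Cell type cannot be told apart here from the capture beads or from the 2 summed sequencing runs, which only monocytes had. The DC mean also includes both LN subtypes whereas the monocytes were splenic, so organ and cohort enter this comparison as well. Nlrp3, Nlrc4, Pycard, Casp1, Casp4, Gsdmd, Il1b, Il18 and Nod2 were higher in monocytes, 9 of 10 members, beside 26.4% of all genes higher and 52.9% called in either direction. Aim2 did not pass (log2 fold change 0.10 ± 0.16, adjusted p = 0.630, interval -0.24 to 0.44). The largest differences on the log2 scale were Nlrp3 at 3.11 ± 0.23 (adjusted p = 1.47e-09), Nlrc4 at 2.27 ± 0.30 (adjusted p = 4.23e-06) and Il1b at 1.58 ± 0.21 (adjusted p = 4.25e-06). Gsdmd was higher by 1.24 ± 0.17, Pycard by 1.06 ± 0.15 and Casp4 by 1.00 ± 0.19. Nod2 was higher by 0.75 ± 0.21 (adjusted p = 0.00582), a call that was lost when the second sequencing run of the monocyte libraries was used alone (adjusted p = 0.162). Only Nlrp3, Pycard and Nod2 were above every DC library in every monocyte library, for Nod2 only with both runs summed, and such separation was not counted over all genes. The median of the 10 members was 1.03 on the log2 scale, beside -0.06 over all genes.

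Each DC subtype was also set against monocytes alone. Against CD4+ DCs 4 members were higher in monocytes (Nlrp3, Pycard, Casp4 and Gsdmd, beside 23.8% of all genes higher and 48.0% called), against CD8+ DCs 8 (20.4% and 42.1%), against CD103+ DCs 6 (24.6% and 53.2%) and against CD11b+ DCs 8 (21.3% and 47.8%), and 0 were lower in any of these pairs, which share the monocyte libraries. Casp4 was called only against the splenic DCs, at 8.18-fold higher than CD8+ DCs (log2 fold change 3.03 ± 0.29, adjusted p = 8.91e-08) and 2.59-fold higher than CD4+ DCs (log2 fold change 1.37 ± 0.27, adjusted p = 0.000353). Nlrp3 ranged from 2.13-fold (CD4+ DCs) to 82.6-fold (CD103+ DCs) higher in monocytes. The 8 mature neutrophil genes summed to 531 to 618 CPM in monocytes, against at most 115 in any DC library, and the 7 neutrophil granule genes, all detected, to 163 to 272 against at most 2.43. Mmp9 and Stfa2l1 were at 0 in monocytes, Elane averaged 1.98 CPM, and the part of such transcripts in these results was not tested.

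The other genes of these pathways were more often higher than lower in monocytes. Of 68 pathway genes tested, 39 were higher and 12 lower in monocytes, against 26.4% of all genes higher and 52.9% called. Among other sensors 5 of 8 were higher and 1 lower. The higher ones included Mefv, which encodes the sensor pyrin (2.83 ± 0.20), and Nod1, the receptor for diaminopimelic peptides (2.63 ± 0.15). The NAIP proteins that bring bacterial ligands to Nlrc4 were higher in 3 of 4 cases, with Naip5 at 228 ± 3.64 CPM in monocytes and 1.94 ± 0.19 on the log2 scale. These near-identical genes share sequence, and only uniquely mapped reads were counted, so their split is uncertain. Of the AIM2-like receptors, another family of close copies, 7 of 8 were higher, led by Ifi204 (3.55 ± 0.17). Among triggers and regulators 8 of 13 were higher and 1 lower. The higher ones included P2rx7, the ATP-gated channel upstream of Nlrp3 (2.25 ± 0.22), and Mlkl, the effector of necroptosis (4.05 ± 0.40).

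Genes of NOD signalling divided in this comparison, in which 26.4% of all genes were higher and 52.9% called. Of 13 tested, 7 were higher and 5 lower, with Card9, the adaptor that couples receptors to NF-κB, higher (1.80 ± 0.22) and Birc2, a ubiquitin ligase of the pathway, lower (-2.64 ± 0.20). Tnfaip3 (A20), which restrains NF-κB, was lower (-1.35 ± 0.20). Among caspases and pore proteins 3 of 7 were higher and 2 lower. Ninj1, which drives membrane rupture, was higher (2.70 ± 0.14). Of the IL-1 family genes 6 of 15 were higher and 3 lower, with a list median of -0.07 on the log2 scale beside -0.06 over all genes. Irak3, an inhibitory kinase of IL-1 signalling, was higher (3.70 ± 0.19), and Il18bp, the soluble IL-18 antagonist, was lower (-2.29 ± 0.35).

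**Figure D3:**
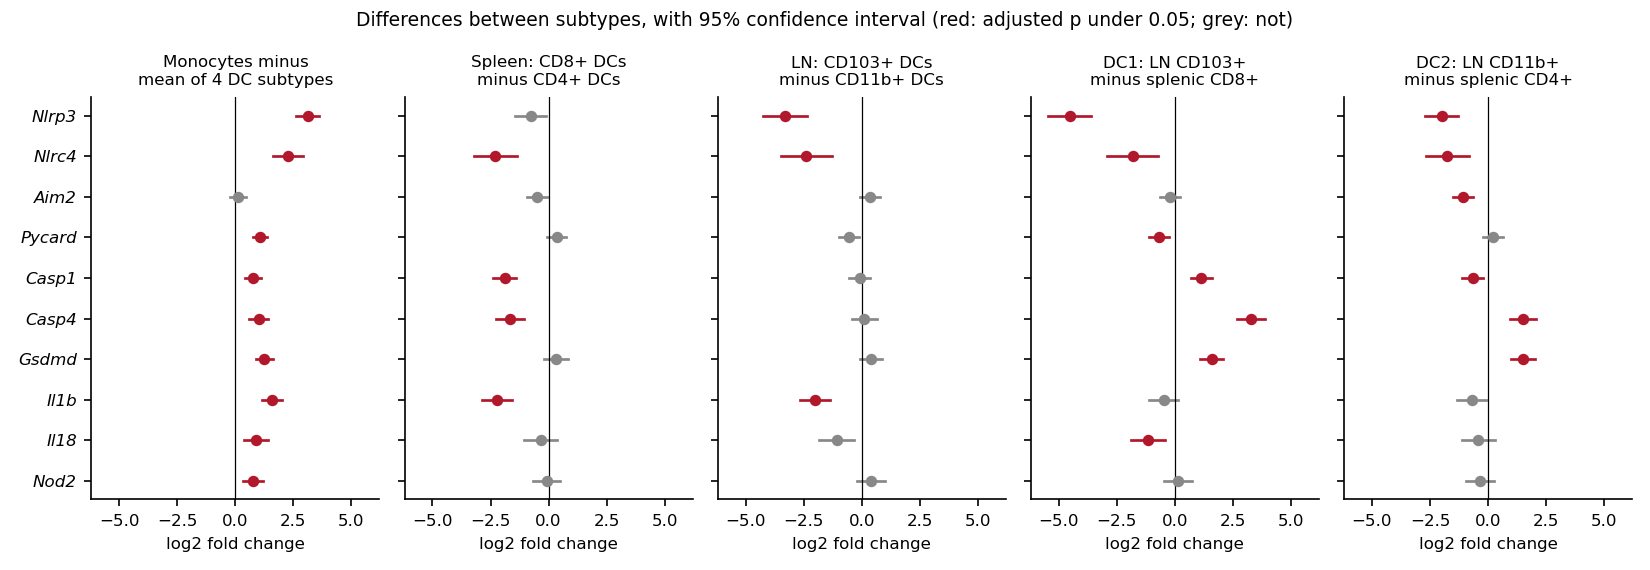
Log2 fold change of each gene (points) with its 95% confidence interval (lines) in 5 comparisons, red where the adjusted p was under 0.05. Monocytes were higher for 9 of 10 genes, beside 26.4% of all genes, and the organ comparisons held genes that moved both ways.

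In the spleen, CD8+ DCs (DC1) were compared with CD4+ DCs (DC2). Nlrc4, Casp1, Casp4 and Il1b were lower in CD8+ DCs and 0 members were higher, so that 4 of 10 were called beside 27.4% of all genes (14.4% lower). Il1b was 4.71-fold lower (log2 fold change -2.23 ± 0.31, adjusted p = 2.52e-05), Nlrc4 4.94-fold lower (log2 fold change -2.30 ± 0.44, adjusted p = 0.000764), Casp1 3.73-fold lower (log2 fold change -1.90 ± 0.23, adjusted p = 5.26e-06) and Casp4 3.16-fold lower (log2 fold change -1.66 ± 0.29, adjusted p = 0.000275). For each of these genes every CD8+ library was below every CD4+ library, and such separation was not counted over all genes. Nlrp3 (-0.77 ± 0.32, adjusted p = 0.0791) and Aim2 (-0.49 ± 0.20, adjusted p = 0.0820) missed the threshold, and passed it with the replicate number as a block (adjusted p = 0.0310 and 0.0463). Gsdmd, Pycard, Il18 and Nod2 did not pass. Monocyte markers summed to 468 to 679 CPM in CD4+ DCs against 146 to 218 in CD8+ DCs, and macrophage markers to 1029.7 to 1327 against 167 to 273. The mature neutrophil list summed to 41.1 to 115 CPM in CD4+ DCs with S100a9, Retnlg, Mmp8 and Stfa2l1 at 0, and the part of any of these in the result was not tested.

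Of the pathway genes 31 of 68 were lower and 4 higher in CD8+ DCs, against 14.4% of all genes lower and 27.4% called. NOD signalling was the list with the most calls, 10 of 13 lower and 0 higher, while Nod2 itself did not pass. Ripk2, the kinase that acts directly after Nod2, averaged 19.8 ± 2.04 CPM in CD8+ and 84.1 ± 25.8 in CD4+ DCs (log2 fold change -2.08 ± 0.25, adjusted p = 6.34e-06). Slc15a3, a transporter of muramyl dipeptide out of endosomes, was lower (-2.42 ± 0.30), as was Nod1 (-2.24 ± 0.23). AIM2-like receptors moved both ways. Ifi205 was at 866 ± 103.3 CPM in CD8+ DCs and 15.6 ± 2.81 in CD4+ DCs (log2 fold change 5.80 ± 0.28, adjusted p = 3.52e-10), whereas Ifi206 was at 0.968 ± 0.566 and 34.5 ± 13.4 (log2 fold change -5.16 ± 0.46, adjusted p = 1.53e-07). Il1rn, the IL-1 receptor antagonist, was all but undetected in CD8+ DCs (6 counts over 3 libraries) and at 10.3 ± 2.17 CPM in CD4+ DCs. The 7 other caspases and pore proteins gave 0 calls.

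In the LN the same lineages were compared as CD103+ minus CD11b+ DCs. Nlrp3, Nlrc4 and Il1b were lower in CD103+ DCs and 0 members were higher, 3 of 10 beside 12.9% of all genes (7.73% lower). Nlrp3 was 9.51-fold lower (log2 fold change -3.31 ± 0.45, adjusted p = 5.44e-05), Nlrc4 5.28-fold lower (log2 fold change -2.38 ± 0.52, adjusted p = 0.00433) and Il1b 3.99-fold lower (log2 fold change -1.997 ± 0.31, adjusted p = 0.000175). No library of 1 subtype overlapped the other for any of these genes, and such separation was not counted over all genes. Casp1 and Casp4, which differed between the splenic lineages, did not pass here, with intervals of -0.55 to 0.37 and -0.43 to 0.64 on the log2 scale. Il18 (-1.08 ± 0.36, adjusted p = 0.0554) missed the threshold and passed with the replicate number as a block (adjusted p = 0.0294), and Pycard missed it (-0.56 ± 0.20, adjusted p = 0.0779). DESeq2 called both, 5 members in all, as did the fit without CD11b+ replicate 3 (adjusted p = 0.0161 for Il18 and 0.0197 for Pycard). Monocyte markers summed to 542 to 648 CPM in CD11b+ and 30.9 to 49.4 in CD103+ DCs. Macrophage markers summed to 627 to 918 and 181 to 229 CPM and mature neutrophil markers to 18.6 to 34.6 and 0.468 to 1.54, and the part of these lists in the result was not tested. Without CD103+ replicate 1, which held B cell transcripts, 3 members were again called.

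The LN pathway calls were fewer, 14 of 68 lower and 5 higher in CD103+ DCs, against 7.73% of all genes lower and 12.9% called. Mefv (-3.40 ± 0.36) and Nod1 (-3.14 ± 0.26) were lower, as in the spleen. Nlrc5, which despite its NOD-like structure is known as the transactivator of MHC class I genes, was higher (1.35 ± 0.24). P2rx7 was lower in CD103+ DCs, at 2.88 ± 1.93 CPM against 20.7 ± 0.745 (log2 fold change -2.90 ± 0.38, adjusted p = 3.46e-05). Naip2 was the only one of the 4 NAIP genes called, and was lower in CD103+ DCs (-1.18 ± 0.21). Of IL-1 family genes 4 of 15 were lower, among them Irak3 (-1.58 ± 0.28) and Il1rn (-1.23 ± 0.30), and 0 were higher.

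DC1s of the LN were then compared with DC1s of the spleen, the comparison of a migratory with a resident subtype. Casp4, Gsdmd and Casp1 were higher in LN CD103+ DCs and Nlrp3, Nlrc4, Il18 and Pycard lower, 7 of 10 members beside 45.6% of all genes (23.8% higher and 21.8% lower). Casp4 was 9.68-fold higher (log2 fold change 3.27 ± 0.29, adjusted p = 3.87e-08), Gsdmd 3.00-fold (log2 fold change 1.58 ± 0.24, adjusted p = 2.82e-05) and Casp1 2.21-fold (log2 fold change 1.14 ± 0.22, adjusted p = 0.000361). Nlrp3 was 22.7-fold lower (log2 fold change -4.54 ± 0.44, adjusted p = 1.16e-07), Nlrc4 3.61-fold (log2 fold change -1.83 ± 0.53, adjusted p = 0.00819), Il18 2.25-fold (log2 fold change -1.16 ± 0.36, adjusted p = 0.0124) and Pycard 1.61-fold (log2 fold change -0.69 ± 0.20, adjusted p = 0.00903). The groups overlapped for Nlrc4 and not for the others of these genes, and such separation was not counted over all genes. Il1b (-0.47 ± 0.30, adjusted p = 0.210), Aim2 and Nod2 did not pass. Each of the 7 calls held without CD103+ replicate 1. T cell markers summed to 106 to 133 CPM in CD103+ and 0.944 to 7.05 in CD8+ DCs, and erythroid markers to 1.82 to 10.9 and 28.7 to 146. Monocyte markers summed to 30.9 to 49.4 CPM in CD103+ and 146 to 218 in CD8+ DCs. Plasmacytoid DC markers (Siglech, Bst2, Ccr9, Klk1) summed to 61.1 to 66.6 and 106 to 132 CPM. The part of these lists in the result was not tested.

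Among pathway genes 28 of 68 were higher and 13 lower in LN DC1s, against 23.8% of all genes higher, 21.8% lower and 45.6% called. Gbp2 and Gbp3, guanylate-binding proteins that expose bacterial lipopolysaccharide to Casp4, were higher, with Gbp2 at 524 ± 96.6 CPM against 11.9 ± 5.47 (log2 fold change 5.46 ± 0.45, adjusted p = 1.54e-08) and Gbp3 at 59.3 ± 11.04 against 6.85 ± 4.52 (log2 fold change 3.10 ± 0.44, adjusted p = 1.27e-05). Irf1, an interferon-induced transcription factor, was 8.08-fold higher (log2 fold change 3.01 ± 0.24, adjusted p = 1.1e-08). Of the other sensors 4 of 8 were lower and 2 higher. Mefv was 22.3-fold lower (log2 fold change -4.50 ± 0.36, adjusted p = 1.05e-08) and Nod1 8.48-fold lower (log2 fold change -3.08 ± 0.25, adjusted p = 1.6e-08), while Nlrc5 was 6.01-fold higher (log2 fold change 2.59 ± 0.25, adjusted p = 9.58e-08). P2rx7 was 19.7-fold lower (log2 fold change -4.35 ± 0.38, adjusted p = 3.78e-08). Of IL-1 family genes 8 of 15 were higher and 1 lower. The antagonists Il1rn (6.46 ± 0.48) and Il18bp (3.90 ± 0.41) were among the higher, and Myd88, the adaptor of IL-1 and Toll-like receptors, was the lower one (-1.37 ± 0.24). Il1rn was all but undetected in splenic CD8+ DCs, so the size of its difference is uncertain.

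In DC2s the LN was likewise compared with the spleen. Casp4 and Gsdmd were higher in LN CD11b+ DCs and Nlrp3, Nlrc4, Aim2 and Casp1 lower, 6 of 10 beside 33.1% of all genes (19.3% higher and 13.8% lower). Casp4 was 2.85-fold higher (log2 fold change 1.51 ± 0.27, adjusted p = 0.000226) and Gsdmd 2.83-fold higher (log2 fold change 1.497 ± 0.24, adjusted p = 9.44e-05). Nlrp3 was 4.07-fold lower (log2 fold change -2.001 ± 0.34, adjusted p = 0.000139), Nlrc4 3.37-fold lower (log2 fold change -1.75 ± 0.44, adjusted p = 0.00429) and Aim2 2.10-fold lower (log2 fold change -1.06 ± 0.21, adjusted p = 0.000568). LN and splenic libraries did not overlap for any of these genes, nor for Casp1, and such separation was not counted over all genes. Casp1 was 1.59-fold lower (log2 fold change -0.67 ± 0.22, adjusted p = 0.0250), and this call was lost without CD4+ replicate 2 (adjusted p = 0.112), without CD11b+ replicate 1 (0.0825) or replicate 3 (0.0672), and in a fit of these 6 libraries alone (0.0546). Il1b missed the threshold (-0.71 ± 0.29, adjusted p = 0.0715) and passed with the replicate block (adjusted p = 0.0285). T cell markers summed to 67.7 to 102.99 CPM in LN CD11b+ DCs and 1.36 to 7.99 in splenic CD4+ DCs. Mature neutrophil markers summed to 18.6 to 34.6 and 41.1 to 115 CPM, macrophage markers to 627 to 918 and 1029.7 to 1327 and erythroid markers to 11.7 to 58.5 and 35.6 to 238, and their part in the result was not tested.

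The pathway genes of DC2s were called in 21 cases higher and 18 lower of 68, against 19.3% of all genes higher, 13.8% lower and 33.1% called. Sensors were lower in 6 of 8 cases and higher in 1, with Mefv (-2.37 ± 0.29) and Nod1 (-2.18 ± 0.23) again lower. Gbp2 (3.76 ± 0.41) and Irf1 (1.37 ± 0.23) were higher. Birc2 was at 768 ± 61.3 CPM against 126 ± 33.5 in the spleen (log2 fold change 2.60 ± 0.22, adjusted p = 4.55e-08) and Tnfaip3 was 5.14-fold higher (log2 fold change 2.36 ± 0.24, adjusted p = 4.36e-07), whereas Xiap, the ubiquitin ligase that builds the Nod2 signalling complex with Ripk2, was 2.73-fold lower (log2 fold change -1.45 ± 0.22, adjusted p = 4.91e-05). Of IL-1 family genes 8 of 15 were higher and 2 lower, and Il1rn (2.39 ± 0.32), Il18bp (1.88 ± 0.36) and Irak3 (2.16 ± 0.29) were among the higher.

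**Figure D4:**
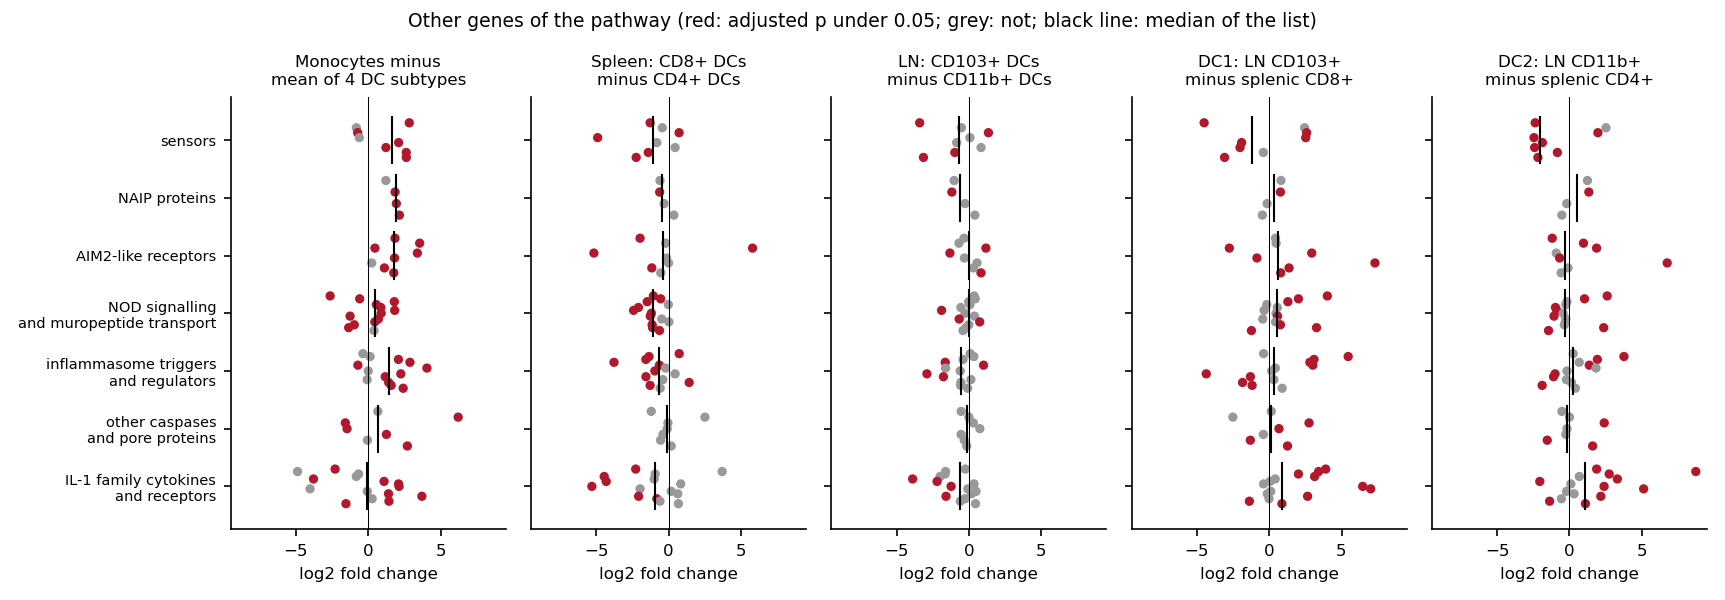
Log2 fold change of the 68 other pathway genes tested, grouped in 7 lists, in 5 comparisons, red where the adjusted p was under 0.05 and with a black line at the median of each list. Most lists lay to the right in monocytes, with 39 of 68 genes higher and 12 lower, beside 26.4% of all genes higher and 52.9% called. Most lay to the left in splenic CD8+ DCs, with 31 lower and 4 higher, beside 14.4% of all genes lower and 27.4% called. Medians were near 0 for the IL-1 family in monocytes (-0.07) and for caspases and pore proteins in CD8+ DCs (-0.09).

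Whether the LN-to-spleen difference itself differed between the lineages was tested as an interaction, DC1 minus DC2. It passed for Casp1, Casp4, Nlrp3 and Pycard, with 2 of 10 members positive and 2 negative, beside 11.2% of all genes (5.17% positive and 6.03% negative). Casp1 was higher in the LN in DC1s and lower in DC2s, and the difference was 1.81 ± 0.31 on the log2 scale (adjusted p = 0.000806). Its decrease in DC2s by itself lost the call in 4 of 25 alternative fits. Casp4 was higher in the LN in both lineages and by more in DC1s (1.76 ± 0.38, adjusted p = 0.00512). Nlrp3 was lower in the LN in both and by more in DC1s (-2.54 ± 0.56, adjusted p = 0.00585). Its CD103+ level rests on few counts, and on log2(TPM + 1), a scale that compresses such low levels, the difference was -1.13 with limma's adjusted p = 0.139. Pycard was called lower in the LN in DC1s and not called in DC2s, where it stood at 0.21 ± 0.20, and the difference between lineages passed narrowly (-0.90 ± 0.28, adjusted p = 0.0474), a call lost in 16 of 25 alternative fits, among them the one without CD103+ replicate 1 (adjusted p = 0.0609). Aim2 missed the threshold (0.85 ± 0.29, adjusted p = 0.0684) and passed in 6 of 25 alternative fits, among them the one with the replicate number as a block (adjusted p = 0.0325). Gsdmd did not pass, with an interval of -0.62 to 0.79, nor did Nlrc4, at -1.33 to 1.18. Among pathway genes 15 of 68 had a positive and 4 a negative interaction, against 5.17% and 6.03% of all genes. Il1rn had a difference of 4.07 ± 0.61, with 6 counts in all in splenic CD8+ DCs, P2rx7 of -3.35 ± 0.49 and Ifi205 of -4.62 ± 0.34.

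**Figure D5:**
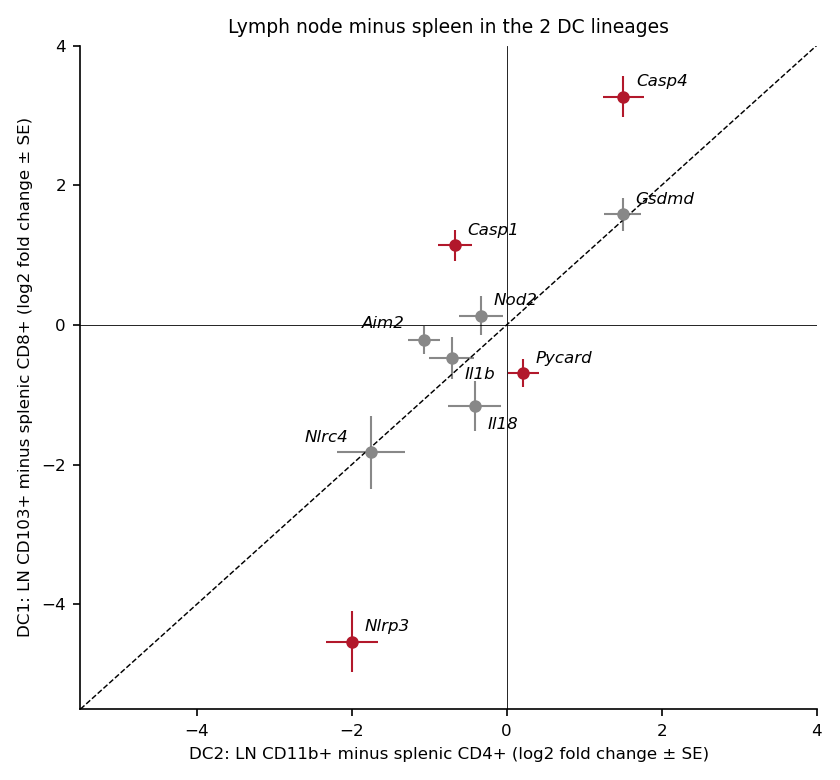
Log2 fold change of LN minus spleen in DC2s (x axis) and DC1s (y axis) for each gene, with SE bars, a dashed line of equality and red for genes whose difference between lineages had an adjusted p under 0.05. Casp1 lay in opposite directions (1.14 in DC1s and -0.67 in DC2s, the latter called in some fits only), and Gsdmd lay near the line of equality.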

How the data were processed

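RNA of 15 sorted libraries was sequenced on Ion Torrent from SMARTer poly-A cDNA amplified without molecular identifiers. Per the labels and the study's methods, the authors mapped reads with STAR 2.4.0j to mm10 and assigned uniquely mapped reads to Ensembl 75 genes with featureCounts (Subread 1.5.2), ignoring strand, which gave the deposited counts. A read over several genes counted for each. The authors also deposited TPM values, computed from these counts and gene lengths. Monocyte counts are sums of 2 runs, which a by-run count table gives separately. Totals of 4531243 to 10233914 counts limit precision, and intervals cover the spread between libraries. Symbols came from a table of gene IDs (37607 of 38924 matched, and 74 of 78 pathway genes).

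Groups followed the sample titles. In R 4.3.3, edgeR 4.0.16 was run with TMM factors and quasi-likelihood tests on genes over 1 CPM in at least 3 libraries, with 1 mean for each of 5 subtypes and Benjamini-Hochberg adjustment at 0.05. No label says that the libraries of a group came from separate experiments, so p-values measure the spread between these pooled libraries. Alternatives were RLE factors, DESeq2 1.42.0, other filters, limma 3.58.1 with trend on log2(TPM + 1) and log2(TPM + 0.1), fits of only the subtypes compared, single monocyte runs, a replicate block and leaving out each library. The scripts were tested on simulated data. Same-numbered libraries deviated together, with every correlation of their deviations from the group means over 0.1, in splenic CD8+ and CD4+ DCs (0.162 to 0.375), LN CD103+ and CD11b+ DCs (0.179 to 0.259) and LN CD11b+ and splenic CD4+ DCs (0.197 to 0.266). Splenic CD4+ and LN CD103+ DCs, not a main comparison, did so too (0.117 to 0.146). In these pairs the numbers may pair the libraries, which no label states. The main tests did not use such a pairing, and the replicate block was run only as an alternative. The members, gene lists and motifs were chosen with earlier results of these data known. All members were named, and of each pathway list genes past the threshold, drawn from the 4 with the largest log2 fold change and at least 10 CPM in the higher group. The 4 promoters were chosen after the values were seen.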

Additional observations from a re-analysis of the deposited data

Results flagged for a closer look

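The LN-minus-spleen difference of Nlrp3 was -4.54 on the log2 scale in DC1s and -2.001 in DC2s, and the test of the difference itself gave -2.54 ± 0.56 (edgeR adjusted p = 0.00585). For Casp4 the values were 3.27 in DC1s and 1.51 in DC2s, with a difference of 1.76 ± 0.38 (adjusted p = 0.00512). Casp1 moved up in DC1s (1.14) and down in DC2s (-0.67), a difference of 1.81 ± 0.31 (adjusted p = 0.000806). The decrease in DC2s by itself lost its call in 4 of 25 alternative fits. Pycard was at -0.69 in DC1s and 0.21 in DC2s, a difference of -0.90 ± 0.28 (adjusted p = 0.0474). Nlrp3, Casp1 and Casp4 were called with each library left out in turn, and Pycard lost the call without any of 12 of the 15 libraries.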

How the results depend on the processing

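Of 60 values of members (10 genes in 6 comparisons), 33 were called and 29 of these were called in every alternative run, while 4 lost the call in some (Nod2 in monocytes, Casp1 in DC2s by organ, and Nlrp3 and Pycard between lineages). Of 27 values not called, 6 gained a call in some alternative, and 0 called values changed direction. The count of genes past the threshold between splenic CD8+ and CD4+ DCs was 3966, and 2600 when only their 6 libraries were fitted. Between LN CD103+ and CD11b+ DCs 5 members were called instead of 3 by DESeq2, by limma on log2(TPM + 1) and by limma on log2(TPM + 0.1). Leaving out 1 library at a time gave 1216 to 2171 genes there (1872 with all) and 3 to 5 members, with 1216 without LN CD103+ replicate 2 and 5 without LN CD11b+ replicate 3. With the replicate number as a block, the calls gained were Nlrp3 and Aim2 in the spleen, Il18 in the LN, Il1b in DC2s by organ and Aim2 between lineages (adjusted p = 0.0325), and the block changed no other member's call. For all subtype pairs together same-number correlations ranged from -0.0353 to 0.375, and in 21 of 30 pairs of same-numbered libraries the correlation was above that with any other number. A fit of only the subtypes compared is the same fit for monocytes against the DC mean. Depth limits Nlrp3 and Nlrc4 in LN CD103+ DCs, at 18 and 26 counts in all.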

Other observations

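Among the 8856 or 8857 other genes with a symbol and a mean of at least 10 CPM, those whose pattern over the 15 libraries was most like that of each member were named by Pearson correlation on log2 CPM, as a description over libraries that share their subtypes. Nlrp3 was most like Mefv (r = 0.985), Gpr141 (0.982) and Ikzf1 (0.981), and Nlrc4 most like Fam111a (0.963). Casp4 was most like Anxa2 (0.971) and Prdm1 (0.964), Gsdmd like Map1lc3b (0.980) and Vim (0.977). Casp1 was most like Rb1 (0.966), Pycard like Trak1 (0.981) and Il1b like Agps (0.961). Aim2 was most like Mitd1 (0.908), Il18 like Gnpda1 (0.913) and Nod2 like Trim25 (0.872), the loosest match of the members. Among the members themselves the closest were Nlrc4 with Il1b (0.888) and Nlrp3 with Nlrc4 (0.878), and the most opposed were Aim2 and Gsdmd (-0.578).

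In the monocyte libraries each member was measured in 2 sequencing runs of the same library. The ratio of the second run's CPM to the first ranged from 0.480 (Nod2, replicate 1) to 1.54 (Il18, replicate 3) over the 10 genes and 3 libraries, with a median of 1.01.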
